A study of Mus musculus with 24 samples.

Results

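Immunoglobulin gene segments are the constant (C), variable (V), diversity (D) and joining (J) genes from which B cells and plasma cells assemble antibodies. A gene was taken when the GENCODE annotation gave it an immunoglobulin C, V, D or J type and its reads, counted without regard to strand, came to 50 or more over the 24 libraries of the series. No comparison between groups entered this choice. Of the 264 genes of these types, 98 met it, among 55385 genes counted. They were 12 of 13 constant genes, 84 of 218 V segments, 2 of 14 J segments and 0 of 19 D segments. Of the V segments, 34 lie in the heavy chain locus on chromosome 12, 47 in the kappa locus on chromosome 6 and 3 in the lambda locus on chromosome 16. Just inside the read minimum were Ighv5-16 and Igkv8-16 with 51 reads each and Ighv9-2 with 50, and just outside it were Igkv4-79, Igkv5-48 and Igkv16-104 with 48, 47 and 46.

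RNA came from the gastrocnemius, a calf muscle, of female C57BL/6J mice, in 6 groups of 4 mice with 1 library per mouse. Mice labelled AAV-GFP or AAV-Kl had received an adeno-associated virus through the tail vein, with a liver-specific promoter in front of green fluorescent protein (the vector control) or of Klotho, a circulating protein that declines with age, which directs the transgene to the liver. The groups were young GFP (3 to 6 months), old GFP and old AAV-Kl (21 to 24 months), oldest-old GFP and oldest-old AAV-Kl (27 to 29 months), and young mice labelled Sham, a treatment the labels do not describe further. Whole muscle was lysed, so that blood, vessels and any lymphoid tissue taken with it were included. Levels are given as CPM, reads per 1000000 reads on genes after TMM scaling. The tissue label was checked against 6 muscle fibre genes (Acta1, Ckm, Myh4, Myh1, Mylpf and Tnnt3), whose summed level was 100076 to 151230 CPM in every library.

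An antibody joins heavy chains to light chains of either the kappa or the lambda kind. In each developing B cell a V segment is cut and joined to D and J segments (heavy chain) or to a J segment alone (light chain), so that the cells of a B cell clone carry the same V segments. The constant gene decides the isotype: Ighm encodes IgM, Ighd the IgD that naive B cells make alongside IgM, and Ighg1, Ighg2b, Ighg2c, Ighg3, Igha and Ighe the isotypes reached by class switching. C57BL/6 mice carry Ighg2c where other strains carry Ighg2a. Plasma cells, the antibody-secreting descendants of B cells, hold far more immunoglobulin mRNA than resting B cells.

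The reference sequences of 6 V segments are shown because the V segment results turn on them. They form 3 sets of a heavy and a kappa segment that took large shares of the V reads together in at least 1 library. Each line holds the last 90 coding bases of the segment, 5′ to 3′, from GENCODE release M21 on GRCm38, and capitals run from the last in-frame cysteine codon, which opens the third hypervariable loop, to the end of the segment. They are germline sequence, not the rearranged genes of these mice.
Ighv14-4, chr12:114176438-114176527, minus strand: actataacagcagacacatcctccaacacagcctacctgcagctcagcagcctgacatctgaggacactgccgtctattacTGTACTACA
Igkv6-20, chr6:70335841-70335930, minus strand: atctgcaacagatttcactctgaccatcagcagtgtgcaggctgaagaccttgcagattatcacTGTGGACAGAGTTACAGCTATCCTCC
Ighv11-2, chr12:114048241-114048330, minus strand: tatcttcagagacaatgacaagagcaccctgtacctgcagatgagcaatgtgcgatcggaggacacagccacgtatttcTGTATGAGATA
Igkv14-126, chr6:67896553-67896642, plus strand: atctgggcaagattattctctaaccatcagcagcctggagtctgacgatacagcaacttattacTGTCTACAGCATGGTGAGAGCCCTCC
Ighv12-3, chr12:114366521-114366610, minus strand: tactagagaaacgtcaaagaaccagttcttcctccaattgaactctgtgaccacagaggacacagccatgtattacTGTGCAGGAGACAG
Igkv4-91, chr6:68768555-68768644, minus strand: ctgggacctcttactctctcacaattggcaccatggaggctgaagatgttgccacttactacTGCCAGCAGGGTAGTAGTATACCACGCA

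Ighv11-2 with Igkv14-126, and Ighv12-3 with Igkv4-91, are known as the V segments of antibodies to phosphatidylcholine made by B-1a cells, a self-renewing B cell type of the body cavities. How far V segments can be told apart by their reads differs. Of the stretches of 50 bases in a segment, 100% of those in Igkv14-126 and in Ighv12-3 occurred in no other annotated gene, 94.8% of those in Igkv4-91, 80.9% in Ighv14-4, 61.4% in Ighv11-2 and 35.9% in Igkv6-20, which shared 209 stretches with Igkv6-29. Over the 96 members long enough to measure, the median was 77.8%, 17 members shared no stretch and 11 were under 50%. Reads that map to several places were not counted, so the counts of segments with shared stretches are low. Among the constant genes Ighm, Ighd, Igha, Ighe, Igkc and Iglc1 were at 100%, Ighg2b at 95.9% and Ighg2c at 94.5%.

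Before the members are compared, 5 libraries have to be named. Glycam1, a gene of the high endothelial venules of lymph nodes, was at 30.4 CPM in young GFP mouse 3, at 30.5, 17.4 and 25.3 CPM in young Sham mice 2, 3 and 4 and at 13.6 CPM in oldest-old AAV-Kl mouse 2, and at most 0.281 CPM in the other libraries. The same 5 libraries had Ms4a1, which encodes the B cell surface protein CD20, at 8.17, 5.73, 8.50, 4.58 and 2.45 CPM. Besides them only old AAV-Kl mouse 3, at 10.1 CPM, exceeded 1 CPM of Ms4a1, and it had Glycam1 at 0. Where a result rests on these 5 libraries, the values of the others are given beside it. All libraries held 36415886 to 59733985 reads on genes, of which the members took 997 (young GFP mouse 4) to 81608 (old AAV-Kl mouse 3).

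The summed level of immunoglobulin transcripts, which has no test, was higher in old and oldest-old than in young GFP muscle. The constant genes that passed the test were Ighm and Ighg2c in both older groups and Igha in the oldest-old, beside 1 V segment in old and 6 in oldest-old mice. The summed level of the 98 members was 38.2, 35.6, 118 and 24.1 CPM in young GFP mice 1 to 4. It was 168, 402, 229 and 394 CPM in old GFP mice and 937, 126, 222 and 357 CPM in oldest-old GFP mice. Every old and oldest-old GFP library lay above every young GFP library, and on the log2 scale the group means differed by 2.65 (old) and 2.81 (oldest-old). In bulk RNA, a change in the number of cells that hold these transcripts cannot be told apart from a change in RNA per cell. The sums were 77.02, 124, 123 and 88.9 CPM in young Sham mice, 161, 816, 1629 and 263 CPM in old AAV-Kl mice and 267, 818, 391 and 592 CPM in oldest-old AAV-Kl mice.

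Of the 98 members, 45 passed edgeR's filter on low counts and were tested (11 constant genes, 33 V segments and 1 J segment), and 53 did not. A member that passed only through a group where it was high had to differ, so the counts describe the members and do not test them as a list. Between old and young GFP mice, 3 members were called higher and 0 lower (adjusted p under 0.05), where 3.21% of all 17803 genes tested were called higher. Between oldest-old and young GFP mice, 9 members were called higher and 0 lower, where 8.8% of all genes were called higher. The median log2 fold change of the tested members was 2.49 and 2.91, and that of all genes 0.00 and 0.03. With members that have no read in a group set at the floor of 3 reads, the members' medians were 2.35 and 2.91. These comparisons share the young GFP libraries. Without the 5 Glycam1 libraries, a choice made after seeing the data, 2 and 8 members were called, beside 318 and 1813 of all 19136 genes. Of the 9 calls in oldest-old mice those of Ighm, Ighg2c, Igha and Igkv6-20 held.

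**Figure D1:**
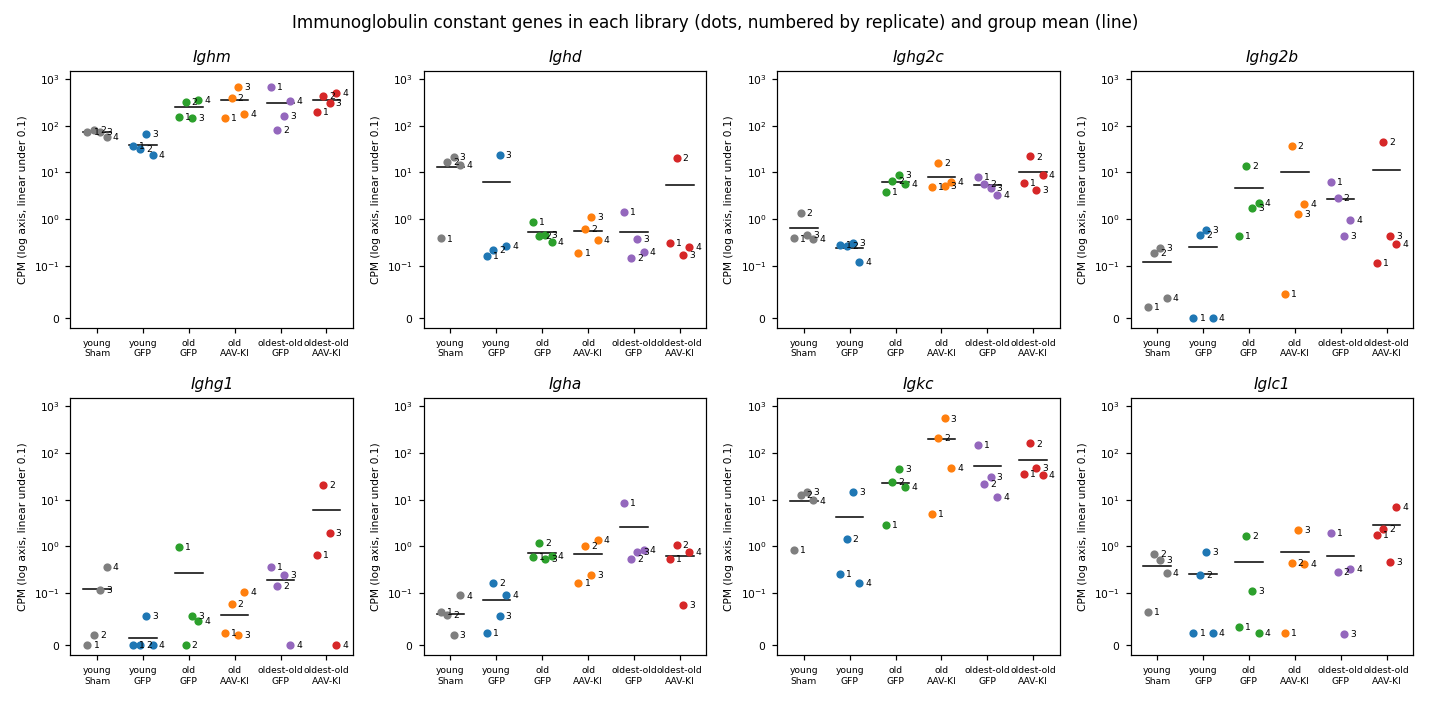
CPM (log axis, linear under 0.1) of 8 constant genes in each library, with dots numbered by replicate and a line at the mean of the 4 libraries of a group. Ighm and Ighg2c sit higher in every old and oldest-old library than in every young GFP library, whereas Ighd is above 10 CPM only in young Sham mice 2 to 4, young GFP mouse 3 and oldest-old AAV-Kl mouse 2.

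Ighm (GRCm38 chr12:113418558-113422730, minus strand) was at 37.2, 31.1, 65.7 and 23.3 CPM in young GFP mice. It was at 156, 328, 144 and 357 CPM in old GFP mice and at 662, 82.0, 163 and 333 CPM in oldest-old GFP mice. All 8 of these older libraries were above all young GFP libraries, with log2 fold changes of 2.65 ± 0.56 (SE, adjusted p = 0.00959) and 2.98 ± 0.57 (adjusted p = 0.00198). Young Sham mice had 74.3, 82.2, 74.5 and 56.6 CPM. Ighm was also the largest single source of member reads, from 41.5% of them in old AAV-Kl mouse 3 to 97.4% in young GFP mouse 1.

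Several young libraries had Ighm reads with hardly any light chain reads. Set per kilobase of exon, the heavy constant genes together were 28.5 times the light constant genes in young GFP mouse 1, 26.4 times in young GFP mouse 4 and 20.3 times in young Sham mouse 1. In young GFP mice 2 and 3 the ratio was 5.14 and 1.31. It was 0.959 to 15.4 in old GFP mice, 1.15 to 7.79 in oldest-old GFP mice and 0.350 in old AAV-Kl mouse 3, the lowest of the series. The cells that gave the Ighm reads of the libraries almost without light chain reads were not identified here, and the cause was not tested. Without Ighm, the summed members still differed between old and young GFP mice by 3.47 on the log2 scale and between oldest-old and young GFP mice by 4.13, but the groups overlapped, since young GFP mouse 3 had 52.8 CPM.

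Ighg2c (chr12:113285325-113288932, minus strand), a constant gene of IgG, rose in both older groups. Its level was 0.281, 0.265, 0.317 and 0.121 CPM in young GFP mice, 3.89, 6.68, 8.94 and 5.72 CPM in old GFP mice, and 8.10, 5.72, 4.73 and 3.27 CPM in oldest-old GFP mice. The lowest older library, at 3.27 CPM, stood far above the highest young GFP library, at 0.317 CPM. The log2 fold changes were 4.64 ± 0.62 (adjusted p = 0.000265) and 4.44 ± 0.62 (adjusted p = 0.000145). Young GFP mouse 3, the Glycam1 library, had 17 reads of Ighg2c, and young GFP mice 1, 2 and 4 had 12, 11 and 5. Young Sham mice had 0.387, 1.37, 0.454 and 0.382 CPM.

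Igha (chr12:113254830-113260236, minus strand), the constant gene of the IgA that mucosal plasma cells secrete, was at 0.023 to 0.169 CPM in young GFP mice. It was at 0.584, 1.20, 0.536 and 0.618 CPM in old GFP mice, where the groups were apart but the call failed (log2 fold change 3.09 ± 0.99, adjusted p = 0.0789). In oldest-old GFP mice it was at 8.44, 0.531, 0.764 and 0.857 CPM, and rose by 4.930 ± 0.997 on the log2 scale against young GFP mice (adjusted p = 0.00286). Mouse 1 of that group stood far above the others, and the log2 fold change was 3.03 without it, still called.

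Ighd set the Glycam1 libraries apart from the rest. It was at 23.99 CPM in young GFP mouse 3, at 16.7, 21.1 and 14.2 CPM in young Sham mice 2 to 4 and at 20.4 CPM in oldest-old AAV-Kl mouse 2, and between 0.145 and 1.42 CPM in the other 19 libraries. In the Glycam1 libraries it made up 3.76% (oldest-old AAV-Kl mouse 2) and 16.4% to 26.3% (the young mice) of the heavy constant genes per kilobase, against at most 1.11% elsewhere. Between old and young GFP mice its log2 fold change was -3.55 ± 1.60 (adjusted p = 0.225), and without the Glycam1 libraries it was 1.26.

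The other IgG genes and Ighe varied widely between mice of a group. Ighg2b was at 13.97 CPM in old GFP mouse 2, 37.4 CPM in old AAV-Kl mouse 2 and 45.1 CPM in oldest-old AAV-Kl mouse 2, while the remaining libraries had at most 6.33 CPM. Ighg1 had 1286 reads in oldest-old AAV-Kl mouse 2, which is 82.6% of its reads in the series, and next to that 99 in oldest-old AAV-Kl mouse 3. Ighg3 was highest in old AAV-Kl mice 2 and 3, at 3.95 and 3.33 CPM. Ighe, the constant gene of IgE, had no read in any young or old GFP library, 33 reads in oldest-old GFP mouse 4 and 288 in oldest-old AAV-Kl mouse 2. It did not pass the filter. None of Ighg1, Ighg2b and Ighg3 was called in any comparison. Together the switched genes were 0.832% to 2.55% of the heavy constant genes per kilobase in the 8 young libraries, 2.76% to 9.18% in old GFP mice and 1.93% to 11.5% in oldest-old GFP mice, with the highest value, 15.8%, in oldest-old AAV-Kl mouse 2.

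Igkc (chr6:70726435-70726966, plus strand), the only kappa constant gene, was not called in either age comparison, and young GFP mouse 3 reached the level of older mice. It was at 0.257, 1.42, 14.9 and 0.169 CPM in young GFP mice and at 0.859, 12.9, 14.9 and 9.63 CPM in young Sham mice, with the high values in the Glycam1 libraries. Old GFP mice had 2.82, 23.96, 46.2 and 19.1 CPM and oldest-old GFP mice 146, 22.002, 30.5 and 11.6 CPM. Old AAV-Kl mice had 4.99, 209, 547 and 48.8 CPM and oldest-old AAV-Kl mice 36.2, 160, 46.9 and 33.9 CPM. The log2 fold change was 2.40 ± 1.26 (adjusted p = 0.309) for old and 3.61 ± 1.30 (adjusted p = 0.0655) for oldest-old against young GFP mice. Without the Glycam1 libraries these were 5.20 and 6.39, and the second was called.

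Lambda chains made up a larger share of light chain reads in the young than in most older libraries. Their share of the light constant reads was 16.7% to 19.9% in young Sham mice. In young GFP mouse 3 it was 23.1% (95% Wilson interval 20.6% to 25.8%), while mice 1, 2 and 4, without Glycam1, held 16, 71 and 10 light chain reads. Their shares were 31.2% (14.2% to 55.6%), 16.9% (9.94% to 27.3%) and 30.0% (10.8% to 60.3%). Each of these lower bounds lay above the share of every older library except oldest-old AAV-Kl mouse 4. The old GFP libraries had shares of 6.29%, 7.43%, 1.26% and 0.478%. Shares were 4.45%, 3.08%, 0.711% and 5.08% in oldest-old GFP mice and 1.42% to 2.28% in old AAV-Kl mice. In oldest-old AAV-Kl mice they were 5.15%, 4.88%, 1.69% and, in mouse 4, 18.05% (16.5% to 19.7%), where 358 reads of Iglc1 stood beside 279 of Iglv1. None of Iglc1, Iglc2 and Iglc3 was called in any comparison. An antisense gene overlaps Iglc3, and reads that fall on both are left out of a count without strand: Iglc3 had 494 reads in that count and 659 and 603 in the counts of either strand, so reads of Iglc3 are missing from these shares. Igkc and Iglc2 overlap genes of their own strand (Gm30211 and Iglj2), and reads left out for that reason cannot be seen in these counts.

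Among the 84 V segments of the list, the repertoire was wide in the young Glycam1 libraries and narrower in old and oldest-old mice. V read totals, shares and indices here and below cover only these segments. The read minimum left out unequal parts of the V segments detected. The list held 71 of 132 in young Sham mouse 3 and 74 of 130 in young GFP mouse 3. It held 60 of 80 in old GFP mouse 3 and 80 of 139 in oldest-old AAV-Kl mouse 2. The effect of this on the values was not tested. The members' V reads ran from 2 in young GFP mouse 4 to 19360 in old AAV-Kl mouse 3, so segments were counted in samples of 100 V reads, which 5 libraries did not hold (young Sham mouse 1, young GFP mice 1, 2 and 4, and old AAV-Kl mouse 1). Young Sham mice 2 to 4 had 48.8, 49.3 and 49.8 segments expected in 100 reads and young GFP mouse 3 had 46.6. Old GFP mice had 30.6, 27.0, 27.8 and 17.9 and oldest-old GFP mice 34.0, 29.1, 27.7 and 26.6. Old AAV-Kl mice 2 to 4 had 25.0, 4.26 and 21.96, and oldest-old AAV-Kl mice 26.6, 31.6, 16.6 and 9.01. The 4 young libraries that could be counted were all above the older ones, but all 4 were Glycam1 libraries, so age and the lymph node gene cannot be told apart in them. The fifth Glycam1 library, from oldest-old AAV-Kl mouse 2, had 31.6.

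**Figure D2:**
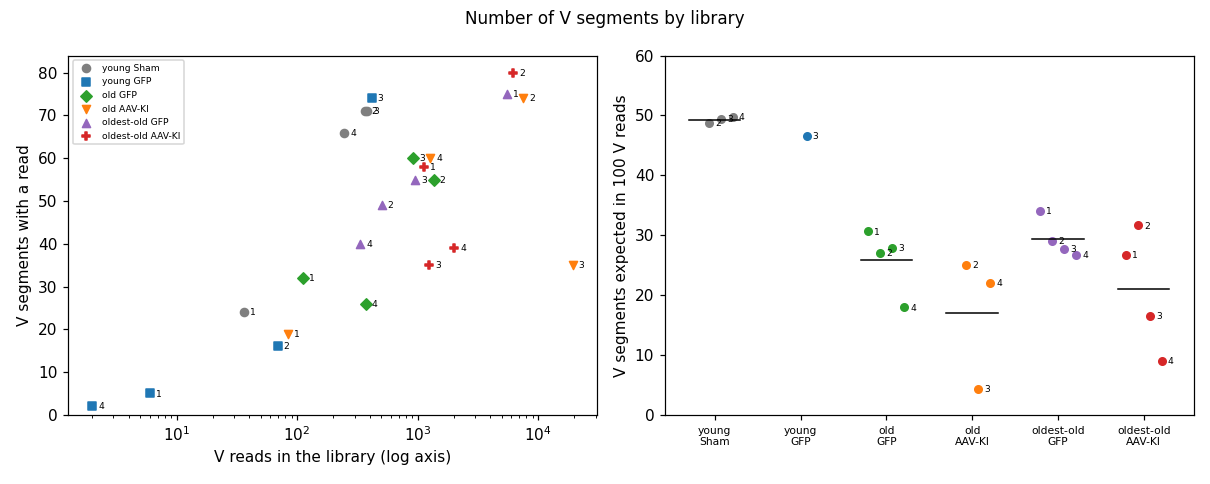
Left, V segments of the list with a read against their reads in each library (log axis). Right, V segments expected in a sample of 100 V reads by group, with a line at the group mean, for the 19 libraries that hold 100 V reads. Young libraries on the right lie between 46.6 and 49.8 segments and the older ones between 4.26 and 34.0.

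The inverse Simpson index, the number of equally used segments that would give the same concentration, also set the young Glycam1 libraries above the older ones. It was 42.7 to 46.5 in young Sham mice 2 to 4 and 38.9 in young GFP mouse 3. Among the young libraries without Glycam1 it was 4.396 in young GFP mouse 2 (69 V reads), a value within the range of the older libraries, and 19.6 in young Sham mouse 1 (36 V reads), while young GFP mice 1 and 4 held 6 and 2 V reads. In old GFP mice it was 7.43 to 15.1, in oldest-old GFP mice 11.8 to 18.2, in old AAV-Kl mice 2.48 to 9.80 and in oldest-old AAV-Kl mice 2.44 to 13.2. The old and oldest-old GFP groups overlapped, as did each AAV-Kl group with the GFP group of its age.

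Which segment led differed from mouse to mouse. Among libraries with 20 or more heavy V reads, the leading heavy segment took at most 18.4% in young Sham mice 2 to 4 and 13.7% in young GFP mouse 3. It was Ighv3-6 in old GFP mouse 1 (64% of 25 reads), Ighv5-6 in mouse 2 (12.4% of 388), Ighv1-53 in mouse 3 (20% of 265) and Ighv1-26 in mouse 4 (25.5% of 94). In oldest-old GFP mice it was Ighv1-53 in mouse 1 (17.3% of 1264), Ighv14-4 in mice 2 and 4 (28.2% of 85 and 39.2% of 74) and Ighv4-1 in mouse 3 (33.5% of 203). No single heavy segment led in all mice of a group. Kappa leaders also differed. Igkv14-126, Igkv5-39, Igkv14-126 and Igkv1-117 led in old GFP mice 1 to 4 with 22.7% to 39.1%, and Igkv3-2, Igkv3-2, Igkv6-32 and Igkv6-20 in oldest-old GFP mice 1 to 4 with 20.9% to 30.7%.

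The 3 libraries with the fewest segments in 100 V reads were from mice given AAV-Kl. In old AAV-Kl mouse 3, Ighv12-3 took 1895 of 1938 heavy V reads (97.8%, 95% Wilson interval 97.0% to 98.3%), and the 17388 kappa V reads were split between Igkv6-15 (50.1%) and Igkv4-91 (48.8%). This library held 94.6% of all Ighv12-3 reads, 89.1% of all Igkv4-91 reads and 97.9% of all Igkv6-15 reads in the series. In oldest-old AAV-Kl mouse 4, Igkv12-89 took 91.5% of 1334 kappa V reads, Ighv1-55 took 74.1% of 398 heavy V reads and Ighv1-59 a further 21.9%, and Iglv1 took 98.2% of 284 lambda V reads. Oldest-old AAV-Kl mouse 3 was led by Igkv3-10 (49.2%) and Ighv1-72 (43.4%). Only 7.5% of the stretches in Ighv1-72 are its own, so that value is uncertain. In old AAV-Kl mouse 2, Igkv14-126 (35.1% of 5247) stood beside Ighv11-2 (24.9%) and Ighv14-4 (24.1% of 2178).

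**Figure D3:**
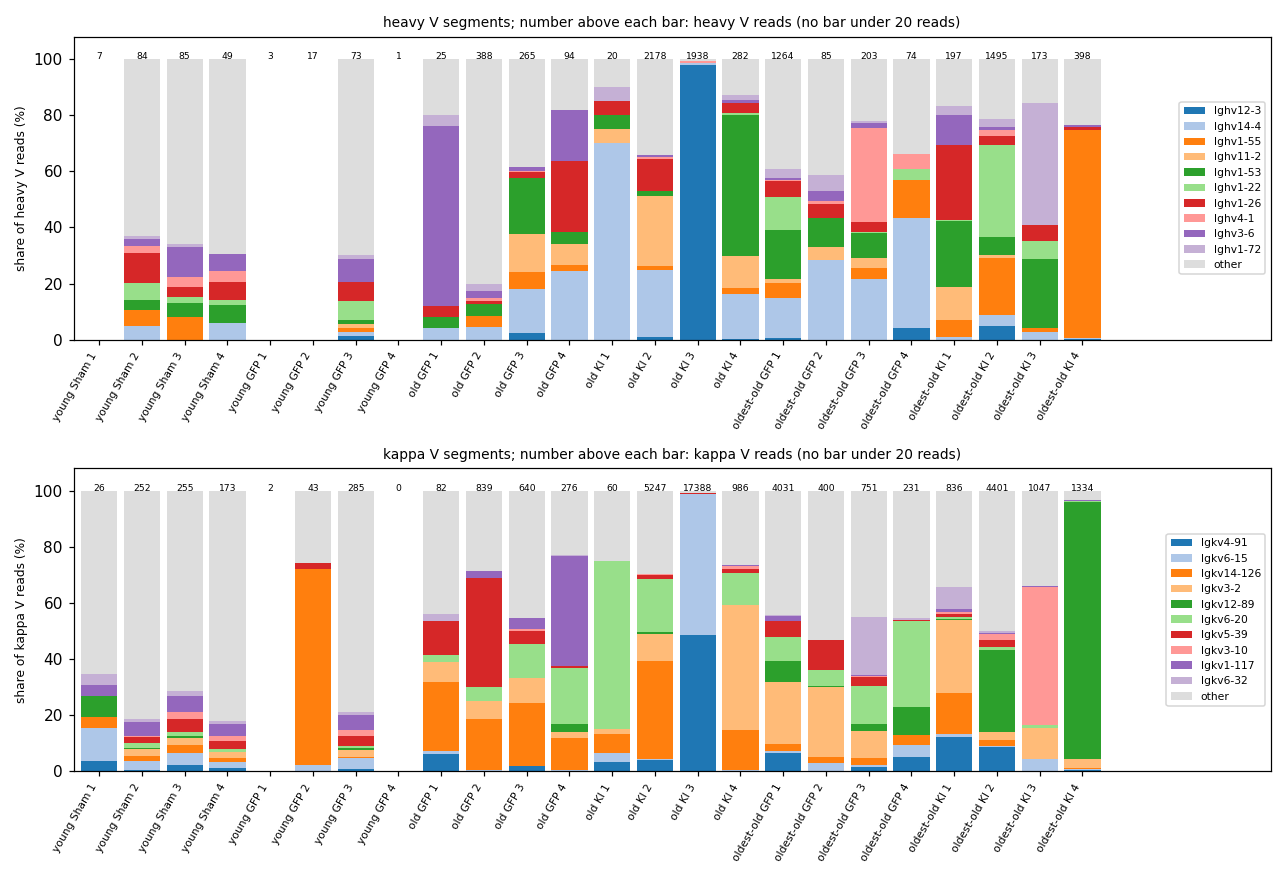
Share of the listed segments' heavy V reads (top) and kappa V reads (bottom) taken by 10 segments and by all others of the list (grey). The 10 are the 5 with the highest mean CPM and 5 others that led in a library. Each library with 20 or more such reads is shown, with the number of reads above each bar. Grey dominates the young Sham libraries and young GFP mouse 3, and a single heavy segment, Ighv12-3, fills 97.8% of the bar of old AAV-Kl mouse 3.

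Several heavy and kappa segments were high in the same libraries. The 3 sets whose sequences are shown were chosen after their values were seen and are a description. Ighv14-4 and Igkv6-20 had 10 or more reads each in 12 libraries from old and oldest-old mice, with 0.814 to 2.57 Igkv6-20 reads per Ighv14-4 read and a median of 2.11. The counts of the pair were 524 and 999 in old AAV-Kl mouse 2, 183 and 346 in oldest-old GFP mouse 1, and 1 and 2 in old GFP mouse 1. Ighv11-2 and Igkv14-126 reached 10 reads each in 6 libraries, with 3.39 to 5.82 kappa per heavy read, and 12 libraries held no Ighv11-2 read. Igkv14-126 appeared without Ighv11-2 at 153 against 0 reads in old GFP mouse 2, where it took 18.2% of the kappa V reads, and at 20 against 0 in old GFP mouse 1. The pair had 543 and 1843 reads in old AAV-Kl mouse 2 and, in young GFP mouse 2, 8 and 30 of 17 heavy and 43 kappa V reads. Ighv12-3 and Igkv4-91 reached 10 reads each in 3 libraries, with ratios of 4.48 in old AAV-Kl mouse 3, 5.44 in oldest-old AAV-Kl mouse 2 and 10.75 in old AAV-Kl mouse 2. Igkv4-91 also appeared with few Ighv12-3 reads, at 260 against 6 in oldest-old GFP mouse 1 and 104 against 0 in oldest-old AAV-Kl mouse 1.

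**Figure D4:**
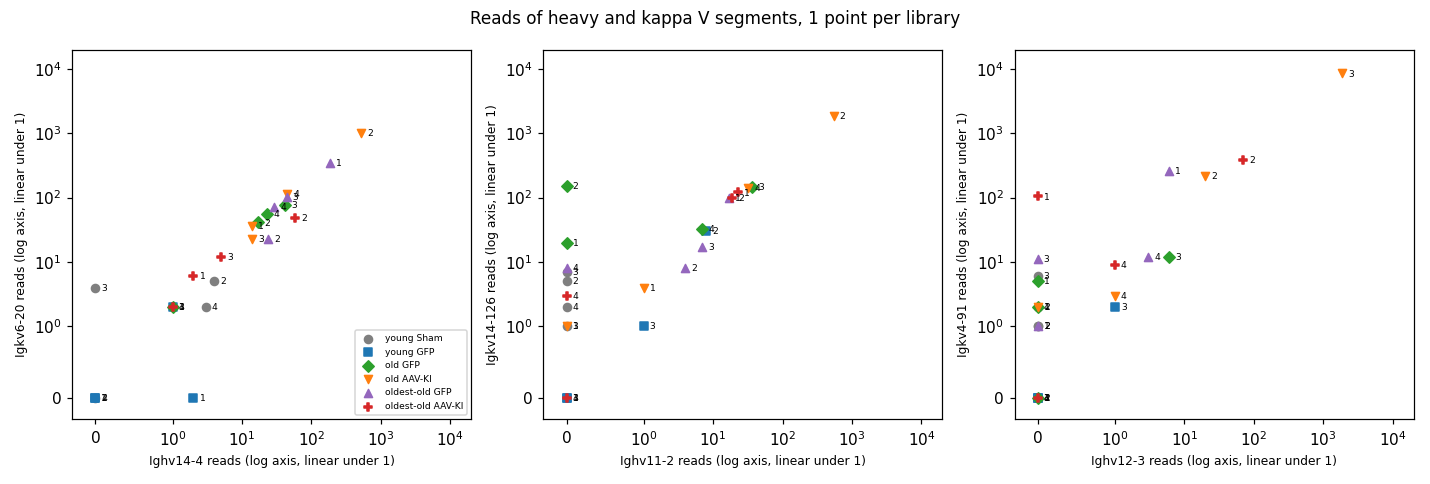
Reads of a kappa V segment (vertical axis) against reads of a heavy V segment (horizontal axis) in each of the 24 libraries for 3 sets, on log axes that are linear under 1, with points numbered by replicate. Points with 10 or more reads of both lie along a band for Ighv14-4 with Igkv6-20 (0.814 to 2.57 kappa per heavy read), and old AAV-Kl mouse 3 stands alone at the top of the panel for Ighv12-3 with Igkv4-91.

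Igkv6-20 was the V segment called in both age comparisons. Its reads were 0, 0, 2 and 0 in young GFP mice, 2, 41, 77 and 55 in old GFP mice and 346, 23, 102 and 71 in oldest-old GFP mice. Old GFP mouse 1 reached no more than young GFP mouse 3, while all oldest-old GFP mice were above the young. The adjusted p was 0.0472 for old and 0.00622 for oldest-old GFP mice. Since young GFP mice held 2 reads in all, the size is poorly bounded: in CPM over the summed reads of each group, oldest-old GFP mice had 233 times the young level, with a 95% counting interval of 64.2 to 1929. The call for old mice held in 4 of 19 alternative analyses and the call for oldest-old mice in 19 of 19.

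In oldest-old GFP mice, 5 more V segments were called higher than in young GFP mice, each resting on few young reads. Ighv14-4, at 183, 24, 44 and 29 reads in oldest-old and 2, 0, 1 and 0 in young GFP mice, was 80.3 times as high (27.2 to 392; adjusted p = 0.0200), with groups apart. Igkv3-2 had 902, 101, 72 and 0 reads in oldest-old mice against 7 in young GFP mouse 3 alone (132 times, 63.9 to 329; adjusted p = 0.0171). Ighv1-53 had 219, 9, 18 and 0 reads against 1 (212 times, 37.6 to 8390; adjusted p = 0.0371), and Igkv12-89 had 302, 1, 19 and 23 against 2 (148 times, 40.8 to 1230; adjusted p = 0.0466). Igkv6-32 had 157 of its 170 oldest-old GFP reads in mouse 3 (48.7 times, 16.4 to 239; adjusted p = 0.0376). Except for Ighv14-4, the groups overlapped, because at least 1 oldest-old mouse was no higher than young GFP mouse 3. The intervals cover counting error only. Without the Glycam1 libraries, Igkv6-20 was the only V segment of these 6 still called.

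The V segments past the minimum were spread over 28 families, among them 16 of the 53 Ighv1 segments, 10 of 26 Igkv4 segments and 7 of 9 Igkv6 segments. Read totals of a family often came from 1 mouse: old AAV-Kl mouse 3 held 71.4% of the Igkv4 reads and 74.9% of the Igkv6 reads, and old AAV-Kl mouse 2 held 54.3% of the Ighv14 reads. The Ighv1 family was shared more widely, with 27.8% in its top library. Lambda V reads came from Iglv1 (936 reads in 23 libraries), Iglv3 (274) and Iglv2 (178). Iglv3 led in young Sham mice 2 to 4 and in young GFP mouse 3, all Glycam1 libraries, and in young Sham mouse 1 with 2 of 3 reads. Young GFP mouse 2, without Glycam1, was led by Iglv1 with 8 of 9 lambda V reads, and young GFP mice 1 and 4 held 1 such read each. Iglv1 led in 14 of the 16 older libraries, with 98.9% of 90 reads in oldest-old AAV-Kl mouse 1. The exceptions were oldest-old GFP mouse 2, led by Iglv2, and mouse 3, where Iglv1 and Iglv3 had 2 reads each.

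The J segments of the list were Igkj5 and Igkj4, of which Igkj5 was tested and was not called. Igkj5 had 18 reads in young GFP mouse 3, 0 in the other young GFP mice and 31 in old AAV-Kl mouse 3, and Igkj4 had 11 and 24 reads in the same libraries. J reads per kappa V read were 0.0578 to 0.0769 in young Sham mice and 0.102 in young GFP mouse 3, against at most 0.0366 in every older library. These young libraries were Glycam1 libraries apart from young Sham mouse 1, whose value rested on 2 J reads. Igkj5 and Igkj4 span 42 and 38 bases, and both overlap Gm30211, a gene of the same strand. Reads that fall on 2 genes are not counted, so J reads left out for that reason cannot be seen. The ratio describes the counted reads only and does not measure rearranged transcripts. Young GFP mouse 2, without Glycam1, had 0 J reads beside 43 kappa V reads, and young GFP mice 1 and 4 held 2 and 0 kappa V reads.

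Oldest-old and old GFP mice could not be told apart by the test. No member was called (edgeR, 0 of 45), 7 had an unadjusted p under 0.05, where 12% of all genes did, and DESeq2 called 0. Igha had the largest difference among the heavy constant genes (log2 fold change 1.84 ± 0.80, adjusted p = 0.378), with 480 of the 592 oldest-old GFP reads in mouse 1. Among the V segments Igkv6-32 (5.65 ± 1.77, adjusted p = 0.260) and Igkv12-89 (4.94 ± 1.83, adjusted p = 0.321) had the lowest p of those named here.

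No member was called between AAV-Kl and GFP mice at either age, which does not show that the groups were alike. In old mice, edgeR and DESeq2 each called 0 members, and 11 had an unadjusted p under 0.05 where 2.15% of all genes did. Igkv6-15 (log2 fold change 10.58, unadjusted p = 0.000141) and Igkv4-91 (8.71, unadjusted p = 0.000640) led them, with the reads of old AAV-Kl mouse 3. DESeq2 gave no adjusted p for either. Igkc, at 4.99, 209, 547 and 48.8 CPM with AAV-Kl and 2.82, 23.96, 46.2 and 19.1 CPM with GFP, had a log2 fold change of 3.14 ± 1.24 (unadjusted p = 0.0196). Mouse 1 of the AAV-Kl group was below 3 of the GFP mice. Ighm and Ighg2c differed by 0.50 ± 0.53 and 0.36 ± 0.48 on the log2 scale. Every member had an adjusted p of 0.9998.

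In oldest-old mice, edgeR and DESeq2 called 0 members between AAV-Kl and GFP, and 9 had an unadjusted p under 0.05 where 8.08% of all genes did. Ighg1 (4.97 ± 1.44, unadjusted p = 0.00246) rested on the 1286 reads of AAV-Kl mouse 2. Igkv6-20 had 6, 48, 12 and 2 reads with AAV-Kl against 346, 23, 102 and 71 with GFP (-3.05 ± 1.12, unadjusted p = 0.0125), and the groups overlapped through AAV-Kl mouse 2. Igha was at 0.545, 1.08, 0.077 and 0.777 CPM with AAV-Kl (-2.09 ± 0.81, unadjusted p = 0.0174). Ighm and Igkc differed by 0.22 ± 0.53 and 0.39 ± 1.15.

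The effect of AAV-Kl in oldest-old mice less that in old mice was called for 0 members by edgeR and by DESeq2. An unadjusted p under 0.05 was found for 7 members, where 5.76% of all genes had one. For Igkv6-20, at 36, 999, 23 and 113 reads in old AAV-Kl mice, the difference of effects was -5.56 ± 1.53 on the log2 scale (unadjusted p = 0.00158, adjusted p = 0.8292). For Ighv14-4 it was -4.77 ± 1.64 (unadjusted p = 0.00847), and for Ighg1 7.21 ± 2.16 (unadjusted p = 0.00314).

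Young GFP and young Sham mice differed in Ighg2c alone at an unadjusted p under 0.05, which 13.4% of all genes had. All 4 young GFP mice were below all 4 Sham mice (-1.38 ± 0.66, unadjusted p = 0.0486, adjusted p = 0.368). No member was called by edgeR or DESeq2. The summed members were lower by 1.19 on the log2 scale, and the groups overlapped, with young GFP mouse 3 at 118 CPM. Of the Sham libraries 3 were Glycam1 libraries and of the young GFP libraries 1.

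Markers of the cells that make antibodies moved with the members in part. The summed level of 14 B cell genes, among them Ms4a1, Cd79a, Cr2 and Fcer2a, was 4.85 to 102 CPM in young Sham, 2.005 to 112 CPM in young GFP, 3.46 to 5.52 CPM in old GFP, 4.08 to 13.5 CPM in oldest-old GFP, 3.50 to 72.0 CPM in old AAV-Kl and 2.91 to 42.1 CPM in oldest-old AAV-Kl mice. The highest value in each young group and in oldest-old AAV-Kl mice was that of a Glycam1 library. None of the 14 genes was called higher with age, and Fcer2a, a receptor of follicular B cells, was lower in oldest-old than young GFP mice (log2 fold change -4.02 ± 1.34, adjusted p = 0.0473), where young GFP mouse 3 held 11.2 CPM and the others at most 0.164 CPM. Without the Glycam1 libraries the log2 fold change of Fcer2a was 0.44 (adjusted p = 0.685). The part of B cell number in the rise of Ighm and Ighg2c was not tested.

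Old AAV-Kl mouse 3, the library of Ighv12-3, had B cell genes near the level of the Glycam1 libraries but little Cr2, Fcer2a and Ighd. Ms4a1 and Cd79a were at 10.1 and 11.8 CPM and Pou2af1, a B cell coactivator, at 10.6 CPM. Cr2 and Fcer2a were at 0.0998 and 0.180 CPM, against 8.09 and 11.2 CPM in young GFP mouse 3, a library with a like level of Ms4a1 (8.17 CPM). Other genes of mature B cells were not low: Cxcr5, which guides cells into follicles, was at 3.45 CPM against 2.89 CPM in young GFP mouse 3, the BAFF receptor gene Tnfrsf13c at 4.05 against 3.09 CPM and the IgM receptor gene Fcmr at 8.18 against 6.49 CPM. Ighd was at 1.12 CPM and Glycam1 at 0. The 8 T cell genes summed to at most 5.70 CPM in old AAV-Kl mice and to 31.5 CPM in the highest young GFP library. Cd5, a gene of that list which B-1a cells also express, was at 0.0798 CPM in old AAV-Kl mouse 3. In young GFP mouse 3 it was at 1.92 CPM. The type of the B cells in old AAV-Kl mouse 3 was not identified.

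**Figure D5:**
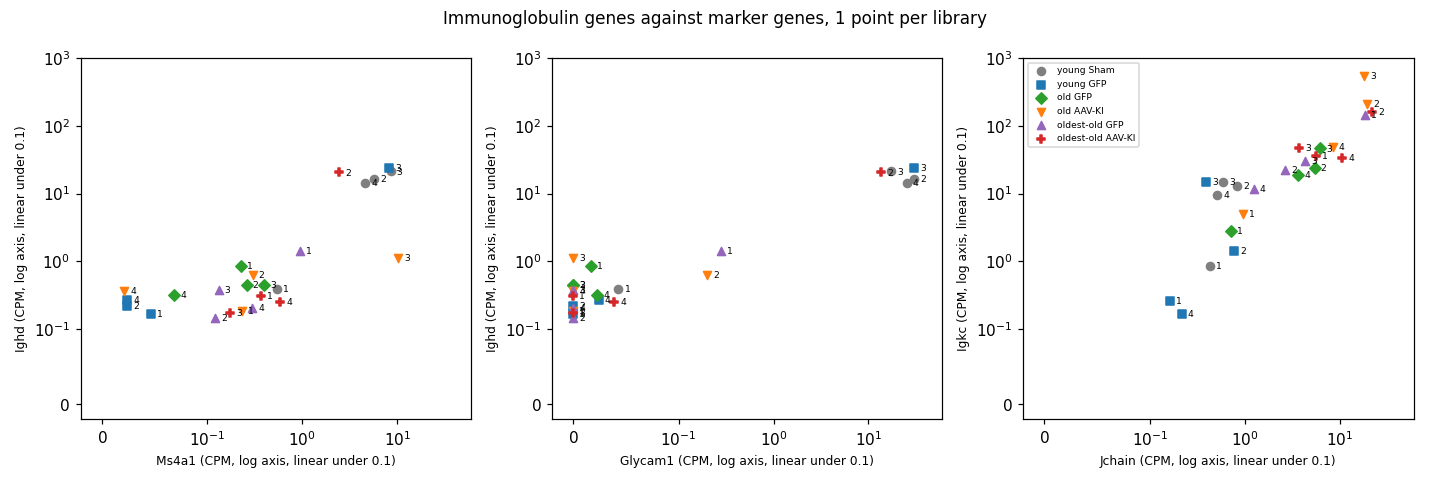
Ighd against Ms4a1 (left), Ighd against Glycam1 (middle) and Igkc against Jchain (right), in CPM on log axes that are linear under 0.1, 1 point per library numbered by replicate. The 5 Glycam1 libraries form a group above 10 CPM of Ighd, and old AAV-Kl mouse 3 has Ms4a1 at 10.1 CPM with Ighd at 1.12 CPM. Igkc climbs with Jchain, except that the young Glycam1 libraries have Igkc at 9.63 to 14.9 CPM with Jchain under 1 CPM.

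Jchain, whose product links IgM and IgA into polymers, followed Igkc except in the young Glycam1 libraries. It was at 0.164, 0.772, 0.392 and 0.217 CPM in young GFP mice, 0.722, 5.46, 6.29 and 3.66 CPM in old GFP mice and 18.3, 2.65, 4.30 and 1.25 CPM in oldest-old GFP mice. It rose by 3.37 ± 0.97 on the log2 scale in old (adjusted p = 0.0485) and by 4.10 ± 0.97 in oldest-old GFP mice (adjusted p = 0.00775) against young GFP mice, and old GFP mouse 1 was below young GFP mouse 2. The call in old mice was lost under other scalings and filters and when any 1 of 7 of the 8 libraries was left out, with an adjusted p of up to 0.157 (without the Glycam1 libraries). Of the 13 plasma cell genes, 12 were tested. Besides Jchain, Tent5c was called (1.77 ± 0.44, adjusted p = 0.0109, oldest-old against young GFP). Tent5c was at 6.96, 1.69, 1.94 and 8.60 CPM in oldest-old GFP mice, and the high mice 1 and 4 were also those with the red cell gene Hbb-bs at 286 and 271 CPM, against 55.5 and 38.98 CPM in mice 2 and 3. Without mouse 4 the adjusted p was 0.0583, and the part of red cells in it was not tested. Mzb1, an endoplasmic reticulum protein of plasma cells, was at 0.463 to 1.38 CPM in all libraries and was not called higher. The 13 genes summed to 87.0 to 169 CPM in all groups, of which Xbp1, which muscle also expresses, made up 72.0 to 145 CPM.

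Over the 24 libraries the log2 CPM of Igkc went with that of Jchain (Pearson r = 0.889, adjusted permutation p = 8.0e-05 over 8 genes, the raw 1e-05 being the smallest that the resamples can give; Spearman rho = 0.916). Without the 2 libraries farthest from the median of Igkc, r was 0.862, and for deviations from the group means it was 0.785 (adjusted permutation p = 0.00088). The young Glycam1 libraries departed from this relation. Among libraries with Jchain under 1 CPM, young Sham mice 2 to 4 and young GFP mouse 3 had Igkc at 9.63 to 14.9 CPM and the others at most 4.99 CPM. Ms4a1 gave r = 0.422 (adjusted permutation p = 0.0809) and, for deviations from the group means, 0.725 (adjusted permutation p = 0.00781). For Cd3e (T cells), Hbb-bs (red cells), Alb (liver) and Krt5 (skin), r lay between 0.114 and 0.359, and no adjusted permutation p was under 0.05. For deviations from the group means it lay between -0.361 (Hbb-bs) and 0.483 (Krt5), again with no adjusted permutation p under 0.05. Mzb1 had r = -0.424 (adjusted permutation p = 0.0809).

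Of genes for the life of plasma cells and B cells in a tissue, 3 of 10 tested were called higher in oldest-old than young GFP mice and 0 lower. Of all genes tested, 8.8% were called higher in that comparison. They were Cxcl12 (log2 fold change 0.54 ± 0.12, adjusted p = 0.00557), a chemokine that holds plasma cells in their niche, Il6 (2.57 ± 0.57, adjusted p = 0.00531) and Tnfsf13b (1.01 ± 0.32, adjusted p = 0.0360), which encodes the B cell survival factor BAFF. None was called in old GFP mice. Il6 rested on few reads, at 2, 1, 4 and 2 in young GFP mice and 18, 12, 22 and 10 in oldest-old GFP mice. Cxcl13, which attracts B cells, was at 26.2 CPM in old AAV-Kl mouse 2, 13.6 CPM in oldest-old GFP mouse 4 and 11.5 CPM in oldest-old AAV-Kl mouse 2, and was not called. Of 10 genes for Fc receptors and immunoglobulin transport, Pigr was called higher in old than young GFP mice (8.06 ± 1.75, adjusted p = 0.0108), at 6.33 and 2.01 CPM in mice 1 and 4, the libraries with Alb at 662 and 58.9 CPM. Without the Glycam1 libraries the adjusted p of Pigr was 0.0771, and that of Tnfsf13b was 0.108 without oldest-old GFP mouse 1.

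Genes of other tissues also moved between these groups. All 13 liver genes of a fixed list were called higher in old than young GFP mice, with a summed level of 1.18 to 1002 CPM in old and 0.351 to 1.37 CPM in young GFP mice, and 0.748 to 1.31 CPM in oldest-old GFP mice. All 7 blood genes were called higher in oldest-old than young GFP mice (90.7 to 665 against 63.5 to 101.3 CPM), and 4 of 7 keratinocyte genes lower (0.941 to 5.89 against 0.942 to 365 CPM). Of these genes Hbb-bs, Alb and Krt5 were set against Igkc over the 24 libraries (r = 0.172, 0.191 and 0.114, adjusted permutation p = 0.486, 0.486 and 0.595). For deviations from the group means, r was -0.361, -0.012 and 0.483 (adjusted permutation p = 0.209, 0.961 and 0.143). Igkc was not itself a member called in the main fit. The part of the liver, blood and keratinocyte genes in the called members was not tested. Without old GFP mouse 1 only 1 of the 13 liver genes was still called, and without oldest-old GFP mouse 4 none of the 7 blood and 4 keratinocyte genes was (edgeR). Genes of V(D)J recombination and precursor B cells were nearly silent, at most 1.83 CPM summed over 7 genes.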

How the data were processed

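RNA of 24 gastrocnemius muscles was sequenced, 1 library per mouse. The counts were deposited by the authors as 1 file per library of reads per gene from STAR, with FastQC, STAR and DESeq2 and the build mm10 named in the submitters' processing notes. The annotation release was not given in the sources used here. All 98 members matched GENCODE M21 (GRCm38) by versioned identifier. STAR counts only reads that map to 1 place and overlap 1 gene. Multimapping reads were 9.78% to 12.2%, and 74.7% to 77.0% of reads were counted on genes. The unstranded column was used, since the strand columns divided the reads evenly (49.8% to 50.4%). The 0 columns of other samples left nothing aside.

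All 24 libraries and 6 groups entered 1 fit of edgeR's quasi-likelihood test (edgeR 4.0.16, R 4.3.3, TMM scaling, filterByExpr) on 17803 genes, with Benjamini-Hochberg adjustment over all of them and a threshold of 0.05. It was tested on simulated data. DESeq2 1.42.0 was an alternative. CPM are reads per 1000000 reads of the TMM-scaled library size. V segments were counted with at least 1 read, and their number in 100 reads was computed exactly from the counts. Sums, shares and segment numbers have no test. Permutation tests were two-sided with 100000 resamples. One B cell gene that entered the summed level and the adjustment over 8 genes is not reported here. Descriptive tables used numpy 2.4.6, pandas 2.3.3 and scipy 1.17.1. Intervals and floors cover counting error only, and the 95% intervals of shares are Wilson intervals. The labels do not state whether mice of a group were housed or processed apart. The study took mice from the NIA colony, Jackson and Charles River and repeated its in vivo experiments across cohorts. Which source or cohort each library came from is not in the labels. The p-values measure the spread between these libraries. A difference of source or batch between groups cannot be told apart from one of age or treatment.

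Named members were all constant genes, in each locus the 5 V segments highest in mean CPM, the V segments called in a comparison with groups apart (at most 5 by adjusted p), the leading V segment of each locus in each library, and the J segments with the most reads. Members and lists were chosen with earlier results of these data known.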

Additional observations from a re-analysis of the deposited data

Results flagged for a closer look

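In each group of 4 libraries, the highest and the lowest read count was compared with the others by Dixon's test for 30 quantities (the named members and the number of V segments detected). It marked 27 single libraries among 180 group tests. The chance rate of 1 in 20 holds for normal values and not for such read counts, which were not scaled for depth. Where 3 libraries held 0 reads, any read in the remaining library was marked, so the number marked is a description only. Most of those marked belong to young mouse libraries with or without Glycam1. In young GFP mice the library apart was mouse 3, high in Ighd (1287 reads), Iglc3 (74), Iglv2 (11), Igkv3-2 (7), Ighg3 (5), Ighg1 (3), Igkv6-32 (3), Igkv6-20 (2), Igkv4-91 (2), Igkv12-89 (2), Ighv1-53 (1), Ighv1-55 (1) and Ighv12-3 (1). The other young GFP mice had 0 reads wherever mouse 3 had 11 or fewer.

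In young Sham mice, mouse 1, the Sham library without Glycam1, was low in Igkc (40 reads), Ighd (18), Iglc3 (3), Iglc2 (2), Iglv3 (2), Ighv1-53 (0) and the number of V segments detected (24). Young Sham mouse 2 was high in Ighg2c, with 71 reads. In oldest-old AAV-Kl mice, mouse 2 was high in Ighd (1245 reads) and Ighv12-3 (71).

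The remaining libraries apart were oldest-old GFP mouse 1 in Igha (480 reads against 22, 35 and 55), oldest-old GFP mouse 4 in Ighe (33 against 0), old GFP mouse 3 in Ighv12-3 (6 against 0) and old AAV-Kl mouse 2 in Igkv6-32 (4 against 0). What set these libraries apart was not tested.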

How the results depend on the processing

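Ighm and Ighg2c were called higher in old and in oldest-old than in young GFP mice under every alternative tried, and Igha and Igkv6-20 were called in oldest-old mice under every one. The number of members called moved more. DESeq2 called 6 in old and 17 in oldest-old mice against young GFP mice, of 58 and 50 members that it gave an adjusted p. Over all genes it called 3.39% and 8.33% of the 36942 with an unadjusted p. That base includes genes without an adjusted p, so these shares and the member counts have unlike bases. A fit of only the groups compared called 5 in oldest-old mice, beside 1249 of all 16067 genes. Leaving out 1 library gave 4 (without young GFP mouse 4) to 11 (without oldest-old GFP mouse 2) calls in oldest-old mice. Over all genes these fits called 1674 of 18261 and 2755 of 18255. An unadjusted p under 0.05 held for 12 (old against young), 19 (oldest-old against young), 7 (oldest-old against old), 11 and 9 (AAV-Kl in old and oldest-old), 1 (young GFP against Sham) and 7 members (difference of AAV-Kl effects). These counts are of 45 members tested. Of all genes tested, 19.1%, 29.8%, 12%, 2.15%, 8.08%, 13.4% and 5.76% had such a p, in the same order. The summed level without Ighm differed by 4.13 (oldest-old against young) and -2.49 (young GFP against Sham). Within groups the correlation of Igkc with Ms4a1 was 0.72, and then passed the threshold.

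Fold changes that were not called changed sign in 22 recomputed values. Without the Glycam1 libraries, an alternative chosen after seeing the data, the log2 fold change of Ighd became 1.26 (old) and 1.29 (oldest-old), and in oldest-old mice given AAV-Kl that of Ighg2b became -3.22 and of Igkc -0.42. In old mice given AAV-Kl, Igha was 0.12 with the counts of the first strand. Leaving out 1 library gave ranges that cross 0: Ighd -3.95 to 1.26 (old) and -4.69 to 1.30 (oldest-old, against young). Between oldest-old and old GFP mice these were Ighg2c -0.46 to 0.0076, Ighm -0.36 to 0.65 and Igkc -0.10 to 1.79. For AAV-Kl in old mice they were Igha -0.63 to 0.27, Ighg1 -2.69 to 0.85, Ighg2b -1.97 to 2.84, Ighg2c -0.20 to 0.58 and Ighm -0.050 to 0.75, and in oldest-old mice Ighg2b -3.22 to 3.03, Ighm -0.10 to 0.91 and Igkc -0.43 to 1.70. Apart from the omitted libraries, the cause was not tested.

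The labels number the mice of each group, but the numbers did not pair them: of 60 same-numbered pairs 14 correlated over 0.1 (median r = -0.01), and of 180 others 50 did. With a replicate block, 2 and 8 members were called in old and oldest-old against young GFP mice (710 and 2510 of all 17803 genes) and 0 in the other comparisons. In oldest-old mice given AAV-Kl the log2 fold changes of Ighg2b and Igkc were then -0.96 and -0.35.

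With under 100 V reads in 5 libraries, no count of segments in 100 reads could be given for them. Counting in 500 reads could not be done for 12 libraries. V segments with shared stretches are undercounted, and counts say nothing of clones or of rearranged sequence.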

Other observations

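In old AAV-Kl mouse 1, which held 84 V reads, Ighv14-4 took 14 of 20 heavy V reads and Igkv6-20 took 36 of 60 kappa V reads. Young GFP mouse 2 was led by Ighv11-2 and Igkv14-126 at 8 and 30 reads.

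Rag1, which cuts V, D and J segments in developing lymphocytes, was at 1.35 CPM in young Sham mouse 1 and at most 0.082 CPM in the other libraries. Dntt, which adds bases at the joins in developing lymphocytes, was at 0.408 CPM in the same library. This library was chosen after its values were seen.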
